A study of Chlorocebus sabaeus with 45 samples.

Results

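The proteasome genes of vervet whole blood were followed through relocation and quarantine. They were chosen by name, as genes called PSMA, PSMB, PSMC, PSMD, PSME, PSMF or PSMG and a number, with a mean of at least 0.5 FPKM (fragments on a gene per kilobase of its length, scaled to the library's total) over the 45 samples. Of the 33994 genes listed, 48 carried such a name and 46 reached the limit. The other two, PSMA8 and PSMB11, which encode a testis-specific and a thymus-specific core subunit, were at a median of 0 FPKM on each day and are not described further. All 46 genes were among the 18753 tested.

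The proteasome is the protease that degrades proteins tagged with ubiquitin. Its core is a barrel of stacked rings, with outer rings of alpha subunits (PSMA) that gate entry and inner rings of beta subunits (PSMB), a few of which cut the protein. A cap binds the core with a base of ATPases (PSMC) that unfold the substrate and with non-ATPase subunits (PSMD) that bind and remove ubiquitin or help the cap assemble. Under interferon, PSMB8, PSMB9 and PSMB10 take the places of PSMB5, PSMB6 and PSMB7 to form the immunoproteasome, which shapes the peptides shown on MHC class I molecules. Other activators (PSME) can open the core in place of the cap. Maturing red cells are known to keep proteasomes while they clear other proteins.

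Blood was taken from 15 wild-born juvenile male vervet monkeys (*Chlorocebus sabaeus*) of St. Kitts, 1 per troop, and each animal gave a sample on day 0, day 3 and day 14. The day 0 samples were taken in the field, just after trapping, under ketamine and xylazine. The day 3 and day 14 samples were taken in individual quarantine housing under dexmedetomidine and midazolam. Animals left in the field were not analysed here, so what differs between day 0 and a later day cannot be told apart from place and sedation. All samples were PAXgene whole blood, from which ribosomal and globin RNA had been removed for stranded libraries. In such bulk blood, fewer cells of a type and less RNA per cell cannot be told apart.

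The libraries held between 13216280 and 31469337 fragments on genes. The proteasome genes took a median share of 0.33%, 0.403% and 0.423% of these on days 0, 3 and 14, with ranges of 0.276% to 0.386%, 0.277% to 0.468% and 0.322% to 0.464%. Behind each FPKM value of a proteasome gene were between 63 and 42414 fragments. The libraries of animal 4 on day 14 and animal 9 on day 0 stood apart, with 31402 and 30752 genes above 0 where no other library had more than 26792. The 20 most abundant genes had median shares of 10%, 13.9% and 25.5% on the 3 days. Library scaling used trimmed means of M values (TMM), and levels below are scaled FPKM unless they are called deposited FPKM. Over all tested genes the log2 fold change then had a median of 0.01 for day 3 vs. day 0, −0.05 for day 14 vs. day 0 and −0.05 for day 14 vs. day 3. Without TMM these medians were −0.03, −0.36 and −0.35.

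The proteasome genes spanned a wide range of levels per gene length. In deposited FPKM, PSME1, a subunit of the interferon-inducible activator, had the highest mean over the 45 samples (327) and PSMB9 of the immunoproteasome the next (201). PSME4, PSMD9, PSMB8, PSMB4 and PSMB3 had means between 107 and 121 FPKM. At the other end were PSME3 (6.54), PSMD11 (7.11), PSMG2 (7.17) and PSMD12 (7.95). PSME2, the partner of PSME1 in one activator ring, had a mean of only 15.1 FPKM. Fragments shared with near-identical gene copies may be lost in counting, which was not tested here, so the level of PSME2 and the level of any subunit with such copies is uncertain. The order was not the same on each day, since PSMD9 was 14th by its median on day 0, 6th on day 3 and 3rd on day 14, while PSMB5 went from 26th to 27th and 33rd.

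Most of the proteasome genes that changed went up, more of them on day 14 than on day 3, and the cap and the alpha ring held most of the rises while no immunoproteasome gene passed the test. On day 3 vs. day 0, 10 of the 46 genes were up-regulated and 1 was down-regulated at an adjusted p-value under 0.05 (limma, Benjamini-Hochberg over all tested genes). That is 23.9% of them, beside 19.4% called among all tested genes (10.1% up and 9.26% down). Without TMM 9 rose and 1 fell, beside 6.35% and 6.8% of all genes. On day 14 vs. day 0, 28 were up-regulated and 1 was down-regulated, or 63.0%, beside 44.2% of all tested genes. Rises made up 60.9% of the proteasome genes and 20.7% of all tested genes, while falls made up 23.4% of all tested genes. This balance depended on the scaling, since without TMM 9 rose and 7 fell by day 14, beside 9.28% of all genes up and 49.8% down. On day 14 the median log2 fold change was 0.32 for the 46 genes and −0.05 for all genes with TMM. Without TMM these medians were −0.07 and −0.36. TMM divides all genes of a library by 1 factor, so this gap could hardly change and is no check on the scaling. A rise of at least 2-fold on day 14 was called for 7 proteasome genes, in order of size PSMD9, PSME4, PSMC2, PSMD4, PSMF1, PSMC4 and PSMD10, and 5.99% of all tested genes rose that far. The comparisons with day 0 share the day 0 samples, so a gene called in both does not count as 2 independent results.

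**Figure D1:**
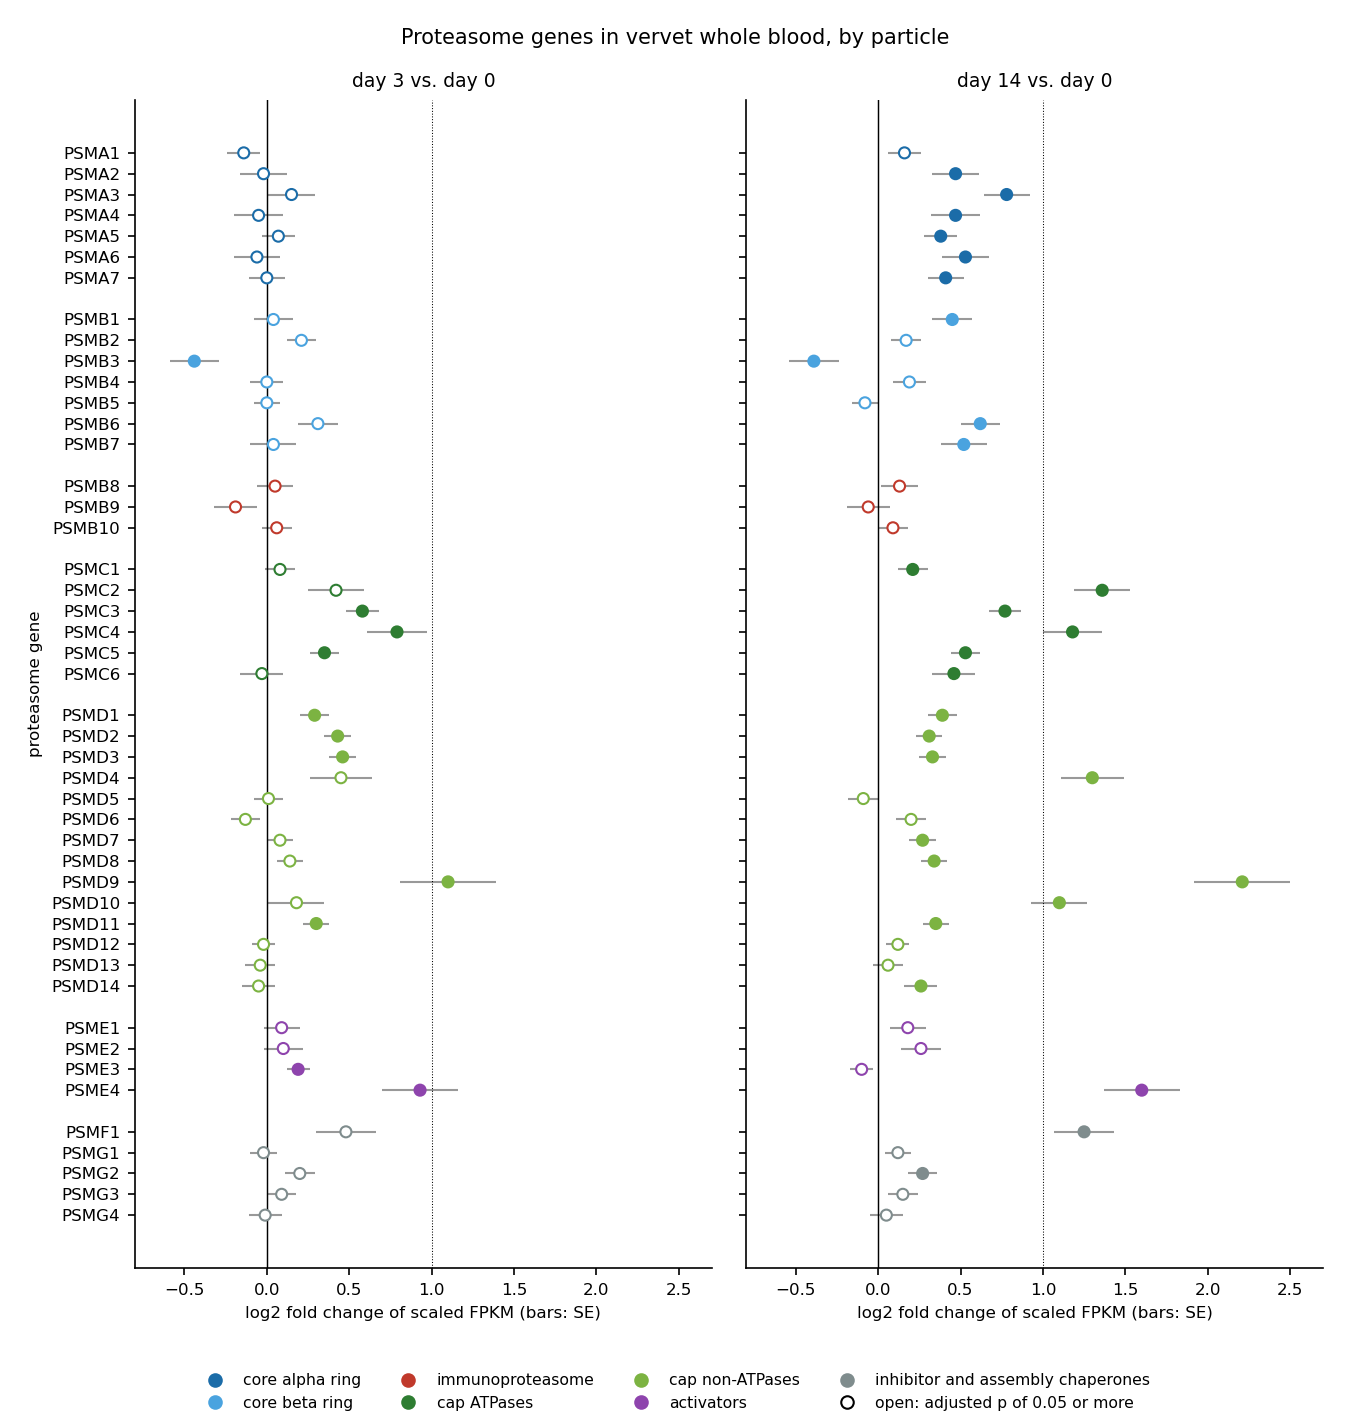
Log2 fold change of scaled FPKM (x axis, bars show the standard error from limma) for each of the 46 proteasome genes (y axis), grouped and coloured by particle, for day 3 vs. day 0 (left) and day 14 vs. day 0 (right). Filled points have an adjusted p-value under 0.05, and the dotted line marks a 2-fold rise. Cap genes lead the rises on both days, the alpha ring joins on day 14 and the 3 immunoproteasome genes stay near 0 with TMM scaling. Without TMM all of the day 14 values shift down by a nearly equal amount.

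Most alpha ring genes rose on day 14 in the scaled fit, and none was called on day 3. None of its 7 genes passed on day 3 vs. day 0 (limma, 0 of 7 also at an unadjusted p under 0.05), with log2 fold changes between −0.14 and 0.15. On day 14 vs. day 0, 6 of the 7 rose, with a median log2 fold change of 0.47 over the 7 genes. Without TMM scaling 1 of the 7 still passed and the median was 0.07. With RNA integrity, a measure of how intact each sample's RNA was, as a covariate 1 passed too, PSMA3 in both, with a median of 0.22. With the mean level of 14 erythroid (red cell lineage) markers in each sample as a covariate, a fit added after the data had been seen, none passed, with a median of 0.19. Both covariates moved with the days. The exception in the scaled fit was PSMA1, with a log2 fold change of 0.16 (95% interval −0.04 to 0.36).

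PSMA3, an alpha subunit, changed most in its ring. Its lowest, median and highest levels over the 15 animals were 7.64, 10.1 and 26.1 on day 0, 8.03, 13.2 and 34.3 on day 3 and 9.47, 22.6 and 29.4 on day 14. The days overlapped, and PSMA3 was higher on day 14 than on day 0 in 11 of 15 animals (log2 fold change 0.78, SE 0.14, adjusted p = 4.59e-05 from limma). PSMA7 went from a median of 53.9 on day 0 (33.8 to 72.5) to 65.2 on day 14 (39.0 to 90.9), and it was higher in 13 animals (log2 fold change 0.41, SE 0.11, adjusted p = 0.00242). In deposited FPKM, PSMA7 had a median of 59.1 on day 0 and 55.3 on day 14, so its rise is a rise relative to the typical gene of the library. With RNA integrity as a covariate PSMA7 did not pass (0.16, adjusted p = 0.374 from limma). PSMA3 passed without TMM as well (log2 fold change 0.39, adjusted p = 0.0285).

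The beta ring was split. Among its 7 constitutive genes on day 14 vs. day 0, PSMB1, PSMB6 and PSMB7 rose, PSMB3 fell and PSMB2, PSMB4 and PSMB5 did not pass, but without TMM scaling none rose and PSMB3 and PSMB5 fell. With RNA integrity as a covariate PSMB6 alone rose and the same 2 genes fell, and with the erythroid covariate none passed. PSMB6, which carries the caspase-like cutting site, had medians of 35.1 on day 0 (24.9 to 48.9), 45.7 on day 3 (28.4 to 69.5) and 56.5 on day 14 (30.4 to 72.2). The ranges overlapped, while 14 of 15 animals were higher on day 14 than on day 0 (log2 fold change 0.62, SE 0.12, adjusted p = 6.59e-05 from limma). PSMB7, with the trypsin-like site, went from a median of 47.2 (22.9 to 77.6) to 68.0 (39.7 to 93.3) on day 14 and was higher in 11 animals (log2 fold change 0.52, SE 0.14, adjusted p = 0.00234). PSMB1, a beta subunit without a cutting site of its own, rose from 49.9 (26.6 to 75.6) to 75.1 (43.8 to 98.0) and was higher in 14 animals (log2 fold change 0.45, SE 0.12, adjusted p = 0.00256). PSMB5, which carries the chymotrypsin-like site, had medians of 19.8, 19.6 and 19.4 on the 3 days, and its log2 fold change on day 14 was −0.08 (95% interval −0.25 to 0.09).

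PSMB3, another beta subunit without a cutting site, was the 1 proteasome gene that fell against day 0 in the scaled fit. Its medians were 113 on day 0 (51.1 to 241), 90.7 on day 3 (60 to 135) and 92.2 on day 14 (64.5 to 128). The day 0 samples were the most spread, and both later days lay within their range. The fall was called on day 3 (log2 fold change −0.44, SE 0.15, adjusted p = 0.0429 from limma) and on day 14 (−0.39, SE 0.15, adjusted p = 0.0378), with 10 of 15 animals lower on each day. This call was weak, since leaving out any of animals 2, 4, 7, 8, 10, 11 or 15 lost it on both days (also animal 9 for day 3 and animal 13 for day 14), although the log2 fold change stayed between −0.53 and −0.37 on day 3 and between −0.47 and −0.30 on day 14 over all 15 omissions. Without TMM the day 14 fall was −0.79 (adjusted p = 9.22e-05 from limma) and was 1 of 7 falls. It passed with RNA integrity as a covariate (−0.6, adjusted p = 0.024) but not with the erythroid covariate (−0.57, adjusted p = 0.153).

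PSMB9 and PSMB8 were 2nd and 5th of the proteasome genes by mean FPKM and PSMB10 was 18th, and no immunoproteasome gene passed in the scaled fit. None of the 3 was called on day 3 or day 14 against day 0 or between the later days (limma, 0 of 3 at an unadjusted p under 0.05 each time). Without TMM scaling PSMB9 and PSMB10 fell on day 14 vs. day 0. PSMB8 had medians of 108 on day 0 (77.8 to 173), 108 on day 3 (70.6 to 174) and 121 on day 14 (89.6 to 156), with a log2 fold change on day 14 of 0.13 (95% interval −0.10 to 0.36). PSMB9 had medians of 193 (125 to 414), 177 (109 to 278) and 205 (129 to 254), with a log2 fold change of −0.06 (−0.32 to 0.21). PSMB10 had medians of 40.2 (28.7 to 61.9), 40.5 (31.4 to 60.6) and 43.7 (27.2 to 51.9), with 0.09 (−0.10 to 0.27). The median of all 46 genes, 0.32, lies within the interval of PSMB8 and above those of PSMB9 and PSMB10, and rises as small as the 0.21 called for PSMC1 lie within or at the end of all 3. In the RefSeq gene order of another vervet assembly, PSMB8 and PSMB9 sit beside the peptide transporter genes TAP2 and TAP1 among the MHC class II genes.

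The share of immunoproteasome against constitutive subunits was read as a ratio of FPKM within each sample, which does not depend on the scaling between libraries. The 3 catalytic pairs did not move together. The PSMB9 to PSMB6 ratio had a median of 5.45 on day 0 (4.05 to 8.82), 3.8 on day 3 (2.5 to 5.93) and 3.94 on day 14 (2.69 to 4.80). It fell by 0.50 ± 0.48 on the log2 scale on day 3 (SD, n = 15, lower in 12 animals, adjusted p = 0.0058, two-sided exact sign-flip test, Benjamini-Hochberg over 15 ratio tests). On day 14 it fell by 0.68 ± 0.38 against day 0 and was lower in 14 of 15 animals (exact sign-flip test, adjusted p = 0.00183).

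The PSMB10 to PSMB7 ratio moved later. Its medians were 0.808 on day 0 (0.542 to 1.72), 0.796 on day 3 (0.569 to 1.5) and 0.659 on day 14 (0.364 to 0.990). On day 3 its change was 0.02 ± 0.38 (adjusted p = 0.871, exact sign-flip test), and on day 14 it fell by 0.43 ± 0.54 against day 0 in 13 animals and by 0.45 ± 0.53 against day 3 in 11 (exact sign-flip tests, adjusted p = 0.0111 for both). When the median over animals was tested in place of the mean, the fall against day 0 was −0.26 and did not pass (adjusted p = 0.137, exact sign-flip test).

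The PSMB8 to PSMB5 ratio went the other way. Its medians were 5.03 on day 0 (3.73 to 8.57), 5.58 on day 3 (3.34 to 7.63) and 6.16 on day 14 (4.15 to 8.11). The change on day 14 vs. day 0 was 0.21 ± 0.24, with 12 of 15 animals higher (exact sign-flip test, adjusted p = 0.0111), but it did not pass when the samples were permuted without regard to animal (adjusted p = 0.0858, permutation test). On day 3 the change was 0.05 ± 0.30. The ratios do not show which gene of a pair moved, since that depends on the scaling. With TMM, PSMB6 and PSMB7 rose on day 14 and no other gene of the 3 pairs was called. Without TMM, PSMB9 (−0.45), PSMB10 (−0.31) and PSMB5 (−0.47) fell, and PSMB6 (0.23) and PSMB7 (0.13) were not called.

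**Figure D2:**
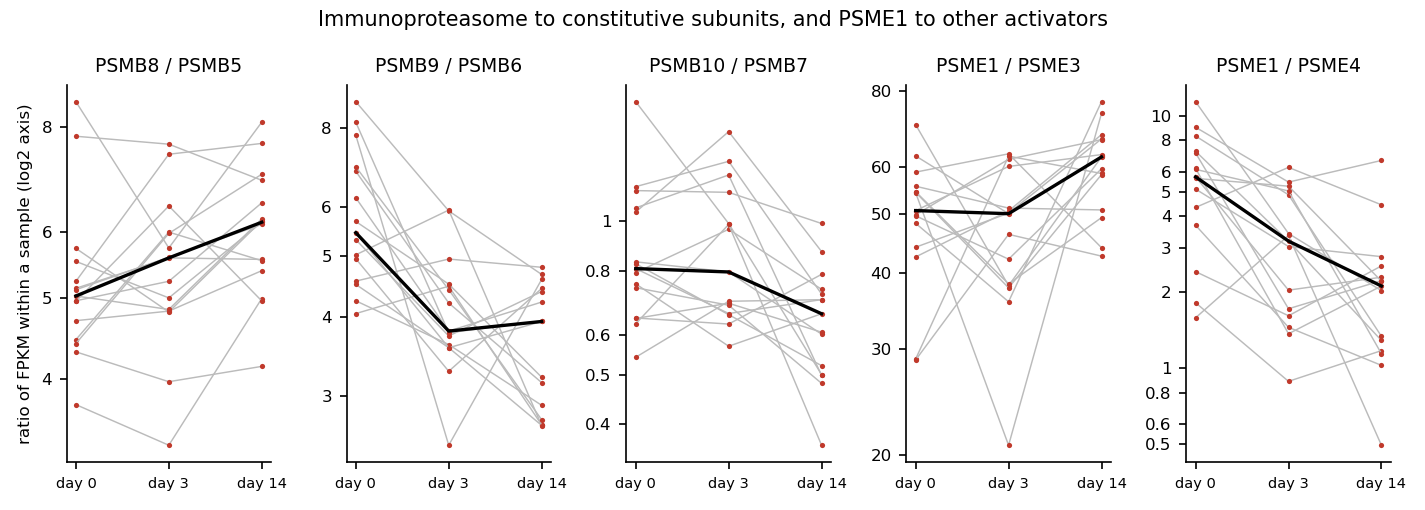
Ratio of the FPKM of a pair of genes within each sample (y axis, log2 scale) on day 0, day 3 and day 14 (x axis). Each grey line with red points is 1 of 15 animals and the black line joins the medians. The first 3 panels set immunoproteasome genes against the constitutive genes they replace, with PSMB9 to PSMB6 going from a median of 5.45 to 3.94 and PSMB8 to PSMB5 from 5.03 to 6.16. The last panels set PSME1 against PSME3 and PSME4.

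Rises of cap base ATPases were called on both later days. On day 3 vs. day 0, 3 of the 6 rose, and on day 14 vs. day 0 all 6 did, with a median log2 fold change of 0.65. Without TMM scaling 4 of 6 rose on day 3 and 3 of 6 on day 14, and none fell in either comparison. With the erythroid covariate 1 of 6 passed on day 3 and none on day 14, with medians of 0.06 and 0.21. The rises on day 14 ran from 0.21 for PSMC1 (adjusted p = 0.0428) to 1.36 for PSMC2 on the log2 scale. That of PSMC1 was lost in 15 of the 24 other fits planned and was −0.18 without TMM.

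PSMC2 had its lowest, median and highest levels at 13.6, 29.5 and 51.1 on day 0, 12.8, 38.3 and 99.8 on day 3 and 32, 74.3 and 134 on day 14. The day 14 median lay above the highest day 0 sample, and all 15 animals were higher on day 14 than on day 0 (log2 fold change 1.36, SE 0.17, adjusted p = 6.28e-07 from limma). On day 3 its log2 fold change of 0.42 did not pass with TMM (adjusted p = 0.0906) and passed without it (0.38, adjusted p = 0.028 from limma). PSMC4 was already up on day 3, from a median of 37.9 on day 0 (27.6 to 66.6) to 63.2 (33.8 to 129) in 15 of 15 animals (log2 fold change 0.79, SE 0.18, adjusted p = 0.00217). It stood at 88.5 on day 14 (48.8 to 159) and was above day 0 in 14 animals (log2 fold change 1.18, SE 0.18, adjusted p = 3.28e-06).

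PSMC3 was less spread between animals. Its medians were 12 on day 0 (8.81 to 18.1), 17.7 on day 3 (11.1 to 27.5) and 20.7 on day 14 (14.2 to 29.4). It rose on day 3 in 14 animals (log2 fold change 0.58, SE 0.10, limma adjusted p = 3.59e-04) and stood higher on day 14 (0.77, SE 0.10, adjusted p = 8.81e-07, higher in 13). PSMC5 rose by 0.35 on day 3 and 0.53 on day 14 on the log2 scale. PSMC6 did not pass on day 3 (−0.03, adjusted p = 0.906) and rose by 0.46 on day 14. Without TMM neither PSMC5 nor PSMC6 passed on day 14 (0.14 and 0.07), and with RNA integrity as a covariate PSMC6 did not (0.31). The transcript levels of the ring, whose proteins are built in equal numbers, drew apart. The SD of log2 FPKM among the 6 ATPases within a sample had medians of 0.77, 0.98 and 1.13 on days 0, 3 and 14, and it was wider than on day 0 in 14 of 15 animals on each later day.

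The non-ATPase genes of the cap behaved less evenly. Of 14 genes, 5 rose on day 3 (PSMD1, PSMD2, PSMD3, PSMD9 and PSMD11) and 10 on day 14 against day 0, with median log2 fold changes of 0.16 and 0.32. Without TMM scaling 4 rose on day 3, and on day 14 there were 3 rises and 2 falls. With the erythroid covariate 2 rose on day 3 and none passed on day 14. Of the 14, 3 rose at least 2-fold on day 14, while PSMD5, PSMD6, PSMD12 and PSMD13 did not pass.

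PSMD9, a chaperone that helps assemble the cap base and leaves the finished particle, changed most of all 46 genes. Its lowest, median and highest levels were 8.51, 44.5 and 272 on day 0, 36.6, 79.3 and 396 on day 3 and 84.5, 218 and 532 on day 14. The days overlapped because the animals differed widely at the start, and within animals it was higher in 14 of 15 on day 3 (log2 fold change 1.1, SE 0.29, adjusted p = 0.00858 from limma) and in 14 of 15 on day 14 (2.21, SE 0.29, adjusted p = 9.31e-07). Without animals 4 and 9, whose libraries stood apart, the log2 fold change on day 14 was 2.07. With the erythroid covariate PSMD9 was not called on day 3 (0.05, adjusted p = 0.838 from limma) or day 14 (0.24, adjusted p = 0.47). PSMD10, another chaperone of the cap base that is also known as gankyrin, had medians of 16.7 on day 0 (7.08 to 35.9), 17.4 on day 3 (7.27 to 47.5) and 33.3 on day 14 (17.4 to 78.6). It was not called on day 3 (log2 fold change 0.18) and rose on day 14 in 14 animals (1.1, SE 0.17, adjusted p = 4.43e-06). PSMD5, the other chaperone of the cap base in this family, had medians of 14.3, 14.9 and 13.3, and its log2 fold change on day 14 was −0.09 (95% interval −0.27 to 0.09).

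Among the non-ATPase subunits that stay in the cap, PSMD4, a receptor for ubiquitin chains, changed most. Its medians were 32.6 on day 0 (15.5 to 48.5), 41.3 on day 3 (18.7 to 98.0) and 79.7 on day 14 (24.9 to 127). On day 3 it did not pass with TMM (log2 fold change 0.45, adjusted p = 0.101) and passed without it (0.41, adjusted p = 0.0325 from limma). On day 14 it was higher than on day 0 in 14 of 15 animals (1.30, SE 0.19, adjusted p = 3.04e-06 from limma). PSMD14, the enzyme that cuts ubiquitin off the substrate, rose by only 0.26 on day 14 on the log2 scale (adjusted p = 0.0424), a call that was lost in 11 of the 24 other fits planned, and without TMM its log2 fold change was −0.13. PSMD2 and PSMD3 rose more on day 3 (log2 fold changes 0.43 and 0.46) than on day 14 (0.31 and 0.33), and day 14 vs. day 3 was not called for either (adjusted p = 0.258 and 0.268). Without TMM their day 14 values against day 0 were −0.08 and −0.06, and both fell between day 3 and day 14 (−0.47 and −0.48, adjusted p = 0.00158 and 0.00308 from limma). The SD of log2 FPKM among the 14 genes within a sample widened too, from a median of 0.86 on day 0 to 0.99 on day 3 and 1.27 on day 14, in 14 of 15 animals on each later day. The 14 include the chaperones PSMD5, PSMD9 and PSMD10, and the SD without them was not taken. In the alpha ring the SD was 0.74, 0.74 and 0.63, and wider than on day 0 in 2 animals on day 14. In the beta ring the SD was 0.87, 0.82 and 0.87, and wider in 5 animals on day 14.

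**Figure D3:**
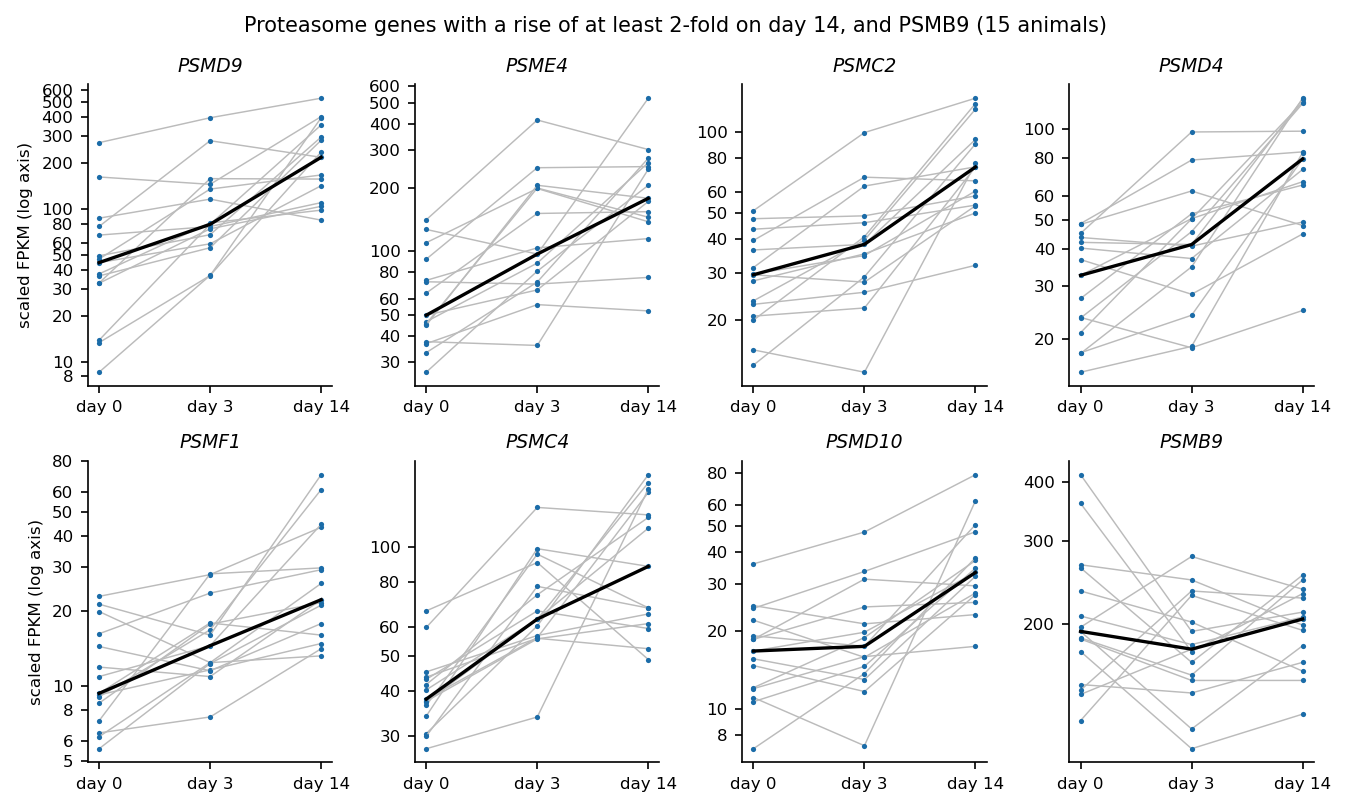
Scaled FPKM (y axis, log scale) of the 7 proteasome genes with a rise of at least 2-fold on day 14 vs. day 0, and of PSMB9 for comparison, on day 0, day 3 and day 14 (x axis). Each grey line with blue points is 1 of 15 animals and the black line joins the medians. PSMD9 goes from a median of 44.5 to 218 and PSMC2 from 29.5 to 74.3, while PSMB9 stays between medians of 177 and 205.

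The 4 activator genes parted company. PSME1 and PSME2, which form the interferon-inducible activator ring, were not called in any comparison, whereas PSME4, which encodes a large single-chain activator, rose about as much as the leading cap genes. PSME1 had medians of 312 on day 0 (202 to 375), 319 on day 3 (176 to 439) and 338 on day 14 (258 to 417), with a log2 fold change on day 14 of 0.18 (95% interval −0.05 to 0.41). PSME2 had medians of 13.9, 15.6 and 15.3, with 0.26 (0.00 to 0.51, adjusted p = 0.0913). In the RefSeq gene order PSME1 and PSME2 are neighbours with only EMC9 between them.

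PSME4 had its lowest, median and highest levels at 27.0, 50.1 and 141 on day 0, 36.1, 97.2 and 416 on day 3 and 52.5, 178 and 527 on day 14. It rose on day 3 in 12 of 15 animals (log2 fold change 0.93, SE 0.23, adjusted p = 0.0054 from limma) and stood above day 0 in 15 of 15 on day 14 (1.6, SE 0.23, adjusted p = 2.86e-06). With the erythroid covariate PSME4 was not called on day 3 (0.14, adjusted p = 0.516 from limma) or day 14 (0.11, adjusted p = 0.772). PSME3, the nuclear member of the family, was low throughout, with medians of 6.16 on day 0 (4.46 to 7.11), 6.91 on day 3 (5.62 to 8.47) and 5.68 on day 14 (4.45 to 6.44). It rose slightly on day 3 (log2 fold change 0.19, SE 0.07, adjusted p = 0.0462) and fell between day 3 and day 14 (−0.29, SE 0.07, adjusted p = 0.00409) in 13 of 15 animals. On day 14 vs. day 0 it was not called with TMM (−0.10) and fell without it (−0.48, adjusted p = 0.00384), where PSME4 was the 1 activator gene that rose. The small rise on day 3 was lost in 15 of the 24 other fits planned, among them each omission of animal 2, 4, 6, 7, 8, 9, 10, 11, 12 or 13, over all of which the log2 fold change lay between 0.16 and 0.23.

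Read within samples, the PSME1 to PSME4 ratio had medians of 5.73 on day 0 (1.59 to 11.4), 3.19 on day 3 (0.888 to 6.25) and 2.12 on day 14 (0.496 to 6.66). It fell by 0.84 ± 0.90 on the log2 scale by day 3 (SD, n = 15, adjusted p = 0.0111, exact sign flips) and by 1.42 ± 0.90 by day 14 (adjusted p = 0.00183), with 13 of 15 animals lower each time. The PSME1 to PSME3 ratio had medians of 50.7, 50.1 and 62.2. It was higher on day 14 than on day 0 by 0.27 ± 0.39 (adjusted p = 0.0338, exact sign-flip test) and than on day 3 by 0.37 ± 0.55 (adjusted p = 0.0262), in 11 animals each. These 2 calls were lost without animals 4 and 9 (0.25 and 0.29, adjusted p = 0.0883 and 0.0887, exact sign-flip test).

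Of the genes for an inhibitor and for assembly of the core, PSMF1 and PSMG2 rose on day 14 and PSMG1, PSMG3 and PSMG4 did not pass, and without TMM scaling PSMF1 alone rose. PSMF1 encodes a protein known as an inhibitor of the core. Its medians were 9.33 on day 0 (5.59 to 22.9), 14.5 on day 3 (7.5 to 28.2) and 22.2 on day 14 (13.2 to 70.6), and 14 of 15 animals were higher on day 14 than on day 0 (log2 fold change 1.25, SE 0.18, adjusted p = 2.58e-06 from limma). On day 3 it did not pass (0.48, adjusted p = 0.0606), although it did with RNA integrity as a covariate (0.56, adjusted p = 0.0456). PSMG2, a chaperone of the alpha ring, rose by 0.27 on day 14 (SE 0.09, adjusted p = 0.0123), with medians of 5.94, 7.65 and 7.23. Its deposited FPKM had a median of 7.19 on day 0 and 5.98 on day 14, and its log2 fold change without TMM was −0.12.

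Between day 3 and day 14, which share housing and sedation, 20 of the 46 proteasome genes rose and 1 fell (45.7%, beside 25.4% of all tested genes), but without TMM scaling 5 rose and 9 fell. Among all tested genes 12.2% rose and 13.2% fell, and without TMM 4.99% and 46.2%. All 7 alpha ring genes rose in the scaled fit, with log2 fold changes from 0.30 to 0.63, and none of them passed without TMM. Without pairing by animal 5 of the 7 passed, and with RNA integrity as a covariate 2 did. The call of PSMA1 was lost without any of animals 1, 2, 8 or 9, and that of PSMA5 without any of animals 1, 3, 8 or 9. Of the beta ring, PSMB1 (0.41), PSMB6 (0.32) and PSMB7 (0.48) rose. Of the cap, 8 of 20 genes rose, led by PSMD9 (1.11, adjusted p = 0.00763 from limma), PSMC2 (0.94, 5.06e-04), PSMD10 (0.92, 4.48e-04) and PSMD4 (0.85, 0.00246). These 4 and PSMF1 (0.77, adjusted p = 0.00358) also rose without TMM. PSME4 rose by 0.67 (adjusted p = 0.0357), which was lost without any of animals 3, 8, 9, 12, 14 or 15 (0.52 to 0.75 over all omissions), and the call of PSMB6 was lost without any of 10 animals, 1, 2, 3, 8, 9, 10, 11, 12, 14 and 15 (0.27 to 0.37). PSMC3 and PSMC5, which had risen by day 3, did not pass (0.19 and 0.18).

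Differences between particles can be read within a sample, where the scaling drops out, and are given here as a description with no test. The mean log2 FPKM of the 6 cap ATPases minus that of the 14 constitutive core genes had medians of −1.18, −0.87 and −0.75 on days 0, 3 and 14. It was higher than on day 0 in 14 of 15 animals on day 3 and in 13 on day 14, by a mean of 0.36 ± 0.24 and 0.42 ± 0.33 (SD, n = 15). The same difference for the 3 immunoproteasome genes had medians of 1.23, 1.31 and 0.96, and on day 14 it was lower than on day 0 in 14 of 15 animals, by a mean change of −0.28 ± 0.26. The alpha ring minus the beta ring went from a median of −0.74 on day 0 to −0.86 on day 3 and −0.48 on day 14, and was higher on day 14 than on day 0 in 12 animals. The mean log2 level of the 14 non-ATPases minus that of the constitutive core was higher than on day 0 in 11 animals on day 3 and in 10 on day 14, by a mean of 0.22 ± 0.27 and 0.18 ± 0.30.

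The animals differed in how much the proteasome genes moved. Of the 46 genes, between 14 and 43 were higher on day 3 than on day 0 in an animal (median 25), and between 22 and 44 on day 14 (median 32). The median change over the 46 genes on day 14 vs. day 0 ran from −0.01 in animal 6 to 0.86 in animal 14 on the log2 scale, and was above 0 in 14 of 15. These are changes of scaled levels and depend on each animal's TMM factors, which in animal 14 were 1.40 on day 0 and 0.738 on day 14. The same counts over all tested genes were not taken by animal. For PSMD9 the change ran from −0.04 in animal 13 to 4.88 in animal 8. Animal 13 also had the lowest changes of PSMF1 (−0.58) and PSMC4 (−0.45), and animals 8, 9 and 14 had the 3 highest changes of PSMD9 (4.88, 4.78 and 4.68). These 3 animals had the lowest PSMD9 levels on day 0 (13.3, 8.51 and 13.8). On day 14 they stood at 396, 236 and 355, below the 532 of animal 7, so the size of their change goes with a low start.

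Markers of several blood cell types moved with the days. The T cell, B cell and platelet lists each held a gene that was not among those measured, and the counts leave it out. None of the measured markers had a median of 0 FPKM on day 0. Among all tested genes 10.1% rose and 9.26% fell on day 3. On day 14 20.7% rose and 23.4% fell, or 9.28% and 49.8% without TMM. Of 14 erythroid markers, 10 rose on day 3 and 13 on day 14 against day 0, with median log2 fold changes of 1.20 and 2.52 and 13 rises on day 14 without TMM as well, among them HEMGN (2.84) and TMCC2 (3.08). Their summed level lay between 624 and 26900 scaled FPKM on day 0 (median 5830), 4250 and 48900 on day 3 (16300) and 8790 and 78000 on day 14 (41900), higher than on day 0 in 14 animals on each later day. All 10 neutrophil markers, among them MGAM (−1.99) and PROK2 (−2.42), fell on day 14, with a median of −1.38 and summed levels of 275 to 3650 on day 0 and 119 to 654 on day 14. The NK and cytotoxic markers rose in 7 of 9, with GZMA at 2.30 and KLRD1 at 1.11, and went from 146 to 696 on day 0 to 357 to 1600 on day 14.

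Platelet markers rose in 9 of 9 on day 3 and 6 of 9 on day 14, beside 10.1% and 20.7% of all tested genes, among them PPBP (1.24) and CLEC1B (1.42). Without TMM the second count was 2, beside 9.28% of all tested genes. Their summed level was 243 to 4330 on day 0, 567 to 4900 on day 3 and 417 to 3420 on day 14. Of 6 monocyte markers, 2 rose and none fell on day 3 (median 0.14), and 2 fell on day 14 (CD14 −0.80, CD163 −0.63), or 3 without TMM, beside 23.4% of all tested genes, or 49.8% without TMM. Beside the same shares, 4 of 7 B cell markers fell on day 14, among them PAX5 (−0.94) and FCRL1 (−0.66), with a list median of −0.44, and without TMM 7 of 7 fell, with a median of −0.83. The summed level of the monocyte markers was 171 to 832 on day 0 and 118 to 402 on day 14, and that of the B cell markers 78.7 to 582 and 143 to 370. Of 9 T cell markers, with a median log2 fold change of −0.12, CD3D (0.58) and CD8A (0.43) rose on day 14, beside 20.7% of all tested genes, and without TMM none rose and 6 fell. The summed level of the T cell markers had a median of 646 on day 0 and 613 on day 14. The part of these cell types in the proteasome changes was not tested beyond the erythroid markers.

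For the erythroid markers, their mean log2 level in each sample was added to the model as a covariate, a choice made after the data had been seen. Then 0 of 46 proteasome genes passed on day 14 vs. day 0 (limma, 5 of 46 at an unadjusted p under 0.05), while 7.93% of all tested genes did. The log2 fold change of PSMD9 went from 2.21 to 0.24, that of PSME4 from 1.6 to 0.11, that of PSMC2 from 1.36 to 0.28, and that of PSMA3 from 0.78 to 0.63 (adjusted p = 0.0838). Not every fold shrank with its call, since PSMB3 went from −0.39 to −0.57 and PSMG2 from 0.27 to 0.29, while PSMD3 went from 0.33 to 0.30. On day 3 vs. day 0, 4 rises remained called (PSMC3, PSMD2, PSMD3 and PSME3) together with the fall of PSMB3, beside 7.39% of all tested genes up and 7.75% down. Between day 3 and day 14 the rises of PSMC2 and PSMD10 remained called, beside 1.86% of all tested genes. The marker level itself rose with the days, so that the covariate and the day cannot be fully told apart. In the single animals, the erythroid level fell in animal 13 alone (−0.51), where PSMD9 changed by −0.04, and it rose most in animals 9, 8 and 14 (5.44, 4.70 and 4.60). Animals 9, 8 and 14 also had the lowest erythroid levels on day 0 (mean log2 3.39, 4.74 and 4.55).

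**Figure D4:**
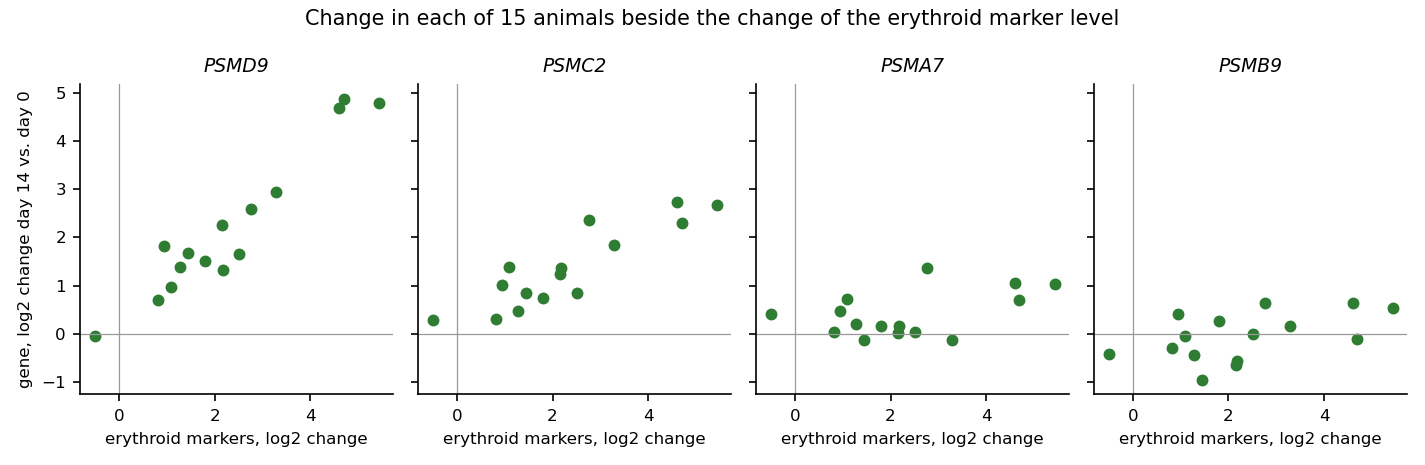
Change of a proteasome gene on day 14 vs. day 0 (y axis, log2) against the change of the mean level of 14 erythroid markers (x axis, log2) in each of the 15 animals (points), for PSMD9, PSMC2, PSMA7 and PSMB9. PSMD9 lies between −0.04, in the animal whose markers changed by −0.51, and 4.88, in an animal whose markers changed by 4.70, while PSMB9 stays between −0.96 and 0.64.

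The RNA integrity number moved with the days too, being higher on day 14 than on day 0 in most animals and lower in none, so that it cannot be fully told apart from the day. With it as a covariate 12 proteasome genes rose and 2 fell by day 14, beside 11.4% of all tested genes up and 11.8% down. The cap ATPases kept 4 of 6 rises, the non-ATPases 4 of 10 and the alpha ring 1 of 6. The 7 genes with at least 2-fold rises were all still called, with log2 fold changes between 0.95 (PSMD10) and 2.21 (PSMD9). In all 24 of the other fits planned, 9 of the 29 calls on day 14 vs. day 0 held (PSMA3, PSMC2, PSMC3, PSMC4, PSMD4, PSMD9, PSMD10, PSME4 and PSMF1), as did 7 of 11 on day 3 vs. day 0 (PSMC3, PSMC4, PSMC5, PSMD2, PSMD3, PSMD9 and PSME4).

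**Figure D5:**
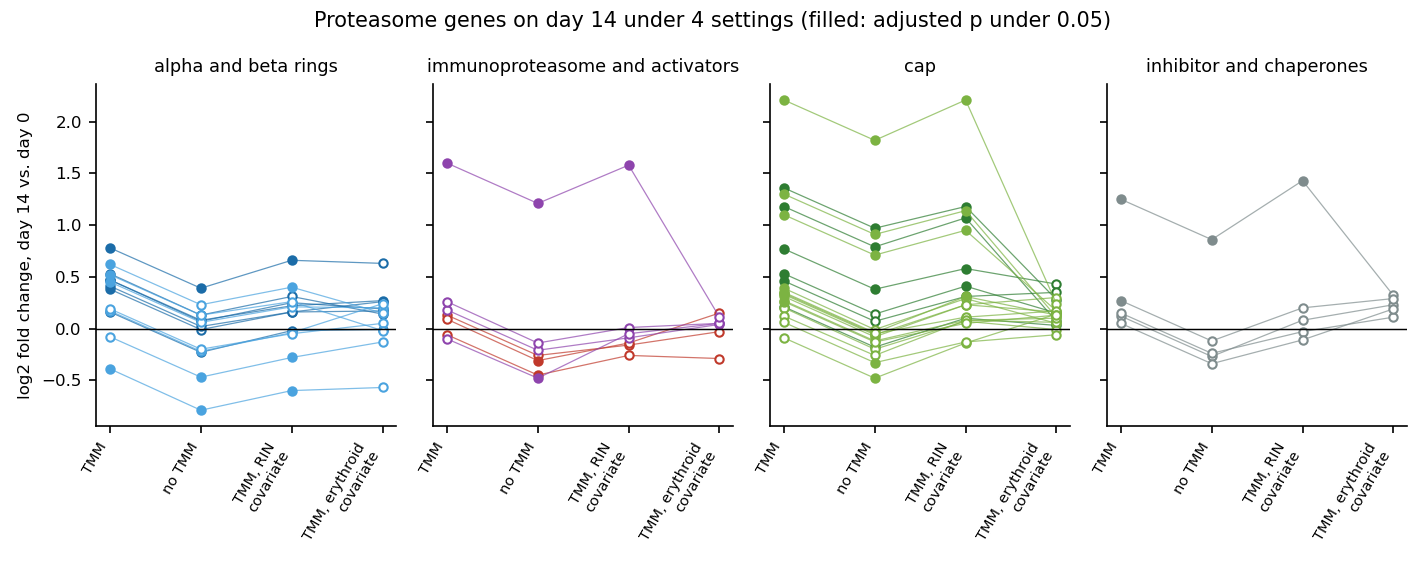
Log2 fold change on day 14 vs. day 0 (y axis) of each proteasome gene in the fit with TMM, without TMM, with the RNA integrity number (RIN) as a covariate and with the erythroid marker level as a covariate (x axis). Each line is a gene in the colour of its particle, as in the plot of fold changes by particle, and filled points have an adjusted p-value under 0.05. Without TMM all of the genes shift down by a nearly equal amount. With the erythroid covariate the 7 genes with rises of at least 2-fold come down to between 0.07 (PSMC4) and 0.32 (PSMF1) and no point is filled.

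Among genes that work with the proteasome, 13 of 22 cofactors rose and 2 fell on day 14 vs. day 0, beside 20.7% and 23.4% of all tested genes. Their median log2 fold change was 0.27, but without TMM it was −0.12, with 6 rises and 9 falls. PITHD1, a protein found with the proteasome, rose by 1.90 (SE 0.22, adjusted p = 2.80e-07 from limma) in 15 of 15 animals, and DDI2, a protease that activates the proteasome's own transcription factor, by 1.36 (SE 0.19, adjusted p = 1.22e-06) in 14. The transcription factor itself, NFE2L1, did not pass on day 14 vs. day 0 (0.08, adjusted p = 0.38), rose by 0.33 on day 3 and was lower on day 14 than on day 3 (−0.25, adjusted p = 0.0149 from limma). Without TMM its day 3 value was not called (0.29, adjusted p = 0.126) and it fell on day 14 vs. day 0 (−0.31, adjusted p = 0.0337). The genes named next were chosen after their values were seen. USP14 (1.34), which trims ubiquitin chains at the proteasome, and ZFAND5 (1.21), which stimulates it, also rose at least 2-fold. With the erythroid marker level as a covariate none of these 4 rises passed, at 0.62 for PITHD1 (adjusted p = 0.0811 from limma), 0.22 for DDI2, 0.22 for USP14 and 0.12 for ZFAND5. The cap subunits ADRM1 (0.29) and SHFM1 (0.64) and the core assembly factor POMP (0.58) were called too, but not without TMM (−0.10, 0.25 and 0.19) or with RNA integrity as a covariate (0.19, 0.43 and 0.43). The falls were those of ZFAND2A (−0.55) and UBQLN2 (−0.31). That of UBQLN2 did not pass with RNA integrity (−0.16) or the erythroid level (−0.07) as a covariate, while that of ZFAND2A passed with each (−0.68 and −1.04).

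Genes that act after or above the immunoproteasome moved in both directions, and their counts stand beside 20.7% of all tested genes up and 23.4% down. Of 11 genes of class I antigen processing, 2 rose and 5 fell on day 14 vs. day 0, and without TMM none rose and 8 fell. PDIA3, a disulfide isomerase of the peptide-loading complex, rose by 0.34 (adjusted p = 0.00103 from limma) but was at −0.05 without TMM, and NLRC5, an activator of class I genes, fell by 0.75 on the log2 scale (adjusted p = 8.20e-04) and was lower in 13 of 15 animals. TAP1, the neighbour of PSMB9, fell by 0.45 (adjusted p = 0.0185), a gene named after its value was seen. Neither fall passed with RNA integrity as a covariate (−0.57 and −0.47, adjusted p = 0.0626 and 0.0998) or with the erythroid covariate (−0.66 and −0.49, adjusted p = 0.154 and 0.235), and nor did the rise of PDIA3 (0.13 and 0.27). Of 8 genes that respond to interferon-gamma, 2 rose and 3 fell, with WARS at 0.40 and IRF1 at −0.53. Neither passed with the erythroid covariate (0.32 and −0.51, adjusted p = 0.209 and 0.151 from limma). WARS also did not pass without TMM (0.0) or with RNA integrity as a covariate (0.29), whereas IRF1 did (−0.92 and −0.55). Of 15 genes that respond to type I interferon, 4 rose and 1 fell, among the rises RSAD2 (1.99) and IFIT1 (1.62), neither of which passed with the erythroid covariate (0.14 and 0.50, adjusted p = 0.863 and 0.573 from limma). OASL, named after its value was seen, rose by 0.76 and passed with that covariate (1.23, adjusted p = 0.00753), but not without TMM or with RNA integrity as a covariate (0.37 and 0.42). Without TMM these counts were 0 and 5, and 2 and 3.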

How the data were processed

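Whole-blood RNA of 15 animals was sequenced on days 0, 3 and 14 (45 libraries). By the study's methods, STAR placed the reads on the Chlorocebus_sabeus 1.1 genome and HTSeq did the counting. What the authors deposited is FPKM, unscaled between libraries. The tables name no unit, which was read from the values: every value above 0 was a whole number of fragments, within 0.02, once multiplied by the library total and a whole gene length (100% of values). The genes are given by symbol alone. The series text names day 15 for the last time point and the sample labels day 14, which is used here.

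FPKM were divided by TMM factors computed from the recovered fragments (trims of 30% and 5%), 0.1 was added, and log2 values were fitted with limma 3.58.1 in R 4.3.3 with animal as a block, 1 mean per day and a mean-variance trend. A log2 fold change on this scale understates changes of low genes. Tested were the 18753 genes with CPM above 0.5 in at least 3 samples, and an adjusted p-value under 0.05 was called. Ratios were tested over the 15 animals by exact sign flips, in which the smallest possible p is 6.1e-05. After removal of the day means, the mean r across genes was 0.328 for 2 samples of 1 animal (lowest −0.0422, 45 pairs) and −0.0382 for 2 samples of 2 animals, and the labels name the animal. The labels name no sequencing batch. Animals are separate, and the 3 samples of 1 animal are not replicates of a day. The scripts were tested on simulated data.

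Genes given in full were the 3 immunoproteasome genes and their constitutive partners, the PSME genes, the 2 genes of each other particle with the lowest adjusted p on day 14 vs. day 0, each gene changed at least 2-fold in any comparison and each called against the direction of its particle, and of other lists the 2 genes with the lowest adjusted p. The genes and lists were chosen with earlier results of these data known. Gene order came from RefSeq (mChlSab1.0.hap1), a build other than that of the authors, so no positions are given. Alternatives were no block, no TMM, median-of-ratios factors, pseudocounts of 1 and 0.01, no filter, CPM above 1 in at least 15 samples, a covariate for the RNA integrity number (from a table of the study), no trend and each animal left out in turn. Fits without animals 4 and 9 and with the erythroid marker level as a covariate were added after the data had been seen. A gene of the cofactor list is counted but not reported here by name.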

Additional observations from a re-analysis of the deposited data

How the results depend on the processing

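The count of called proteasome genes on day 14 vs. day 0 was 29. It moved to 16 (9 up and 7 down) without TMM scaling, to 14 when RNA integrity was a covariate and to 0 with the erythroid marker level as a covariate. For day 14 vs. day 3 (21) it moved to 8 and 2 with these covariates, and for day 3 vs. day 0 (11) to 5 with the erythroid covariate. Leaving out each animal in turn gave 26 to 30 calls on day 14 vs. day 0, 8 to 12 on day 3 vs. day 0 and 15 to 23 on day 14 vs. day 3. Without the replicate block, that is without pairing samples by animal, the counts were 27, 9 and 15, each within 1.5 times the count with the block. Without animals 4 and 9 they were 28, 9 and 15.

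Some called results changed direction. Without TMM 10 of the 28 rises on day 14 vs. day 0 were below 0, the lowest PSMC1 (−0.18), PSMD14 (−0.13), PSMD7 (−0.12) and PSMG2 (−0.12), and the others PSMD2, PSMD3, PSMD8, PSMD11, PSMD1 and PSMA5 (−0.08 to −0.01). On day 14 vs. day 3 PSMB6 was at −0.04 without TMM, and PSMA1, PSMA5, PSMD6, PSMD8 and PSMD14 were between −0.14 and −0.02. Also without TMM, PSMB10 was at −0.31 against day 0 and −0.33 against day 3. With the erythroid covariate PSMB7 was at −0.02 on day 14 vs. day 0 and PSME4 at −0.04 on day 14 vs. day 3. The cause was not tested. Of the 1716 values of the named genes over these settings, 1590 kept their side of the threshold, 102 lost a call, 18 gained one and 6 changed direction with a call on either side. Some values called on neither side also changed sign, such as those of PSMB8, PSME1 and PSME2 on day 14 vs. day 0 without TMM.

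Among the ratios, that of PSMB8 to PSMB5 on day 14 vs. day 0 (0.21) lost its call without the replicate block at 0.21, and on day 14 vs. day 3 it passed with a pseudocount of 0.01 at 0.16 and in some fits with an animal left out (0.13 to 0.20). The call of PSMB10 to PSMB7 on day 14 vs. day 0 was lost with the median over animals (−0.26), as was that of PSME1 to PSME4 on day 3 vs. day 0 (−0.77). PSME1 to PSME3 lost its call on day 14 vs. day 0 with a pseudocount of 1 (0.20), with the median (0.31), without animals 4 and 9 (0.25) and without any of animals 1, 7, 8, 9, 12, 14 or 15 (0.22 to 0.32 over all omissions). On day 14 vs. day 3 it did so with a pseudocount of 1 (0.28), with the median (0.36), without animals 4 and 9 (0.29) and without animal 8 or 9 (0.27 to 0.43).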
